A study of Mus musculus with 8 samples.

Results

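The 10 genes described here encode proteins that killer and effector T cells use. They are the granule genes Gzma, Gzmb, Prf1 and Nkg7, the secreted factors Ifng and Ccl5, the transcriptional regulators Tbx21, Eomes and Id2, and the receptor chain Klrd1. They were taken by symbol from the gene tables of all 8 libraries, and all 10 were found among 23337 symbols. All 10 were among the 11786 symbols tested, those with a mean of at least 1 TPM. The libraries hold RNA of naive T cells, sorted as naive, CD44-low cells from spleens and the nodes abbreviated mLNs of mice aged 4 weeks, and their titles call them fresh. CD4 and CD8 cells came from wild-type (WT) mice and from mice with a conditional knockout (KO) of Trappc1. Each of these 4 groups had 2 libraries. The KO is driven by CD4-cre, which deletes a floxed gene in developing T cells of both lineages. Trappc1 encodes a subunit of the TRAPP complexes, which act in traffic between the endoplasmic reticulum and the Golgi. The labels read here do not say whether animals were pooled, which part of Trappc1 is deleted or whether WT mice carried Cre.

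Cytotoxic lymphocytes kill by releasing granules. Perforin, encoded by Prf1, forms pores in the target membrane, and granzymes, serine proteases such as those of Gzma and Gzmb, enter the target and start cell death. T-bet (Tbx21) and eomesodermin (Eomes) are T-box transcription factors that drive this programme together with interferon gamma (Ifng), while Id2 holds E-protein transcription factors in check. Naive T cells have not met antigen and are known for little of this machinery.

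The upstream 250 bases of the 4 granule genes are shown because each holds a match to the Runx core, the binding sequence of the family that includes the CD8 lineage factor Runx3. RefSeq promoter windows of GRCm38.p6 were matched for 8 of the 10 genes, and Ccl5 and Klrd1 had no entry. Capitals mark matches, on either strand, to the Runx core TGTGGT, the T-box half-site GGTGTGA or the E-box CAGCTG, and no matches overlapped.
Gzma (chr13:113100982-113101231, minus strand): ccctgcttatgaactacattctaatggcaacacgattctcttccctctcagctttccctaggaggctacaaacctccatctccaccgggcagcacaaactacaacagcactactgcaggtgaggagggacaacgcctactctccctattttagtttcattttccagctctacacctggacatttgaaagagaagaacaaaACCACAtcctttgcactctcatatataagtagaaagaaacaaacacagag
Gzmb (chr14:56262335-56262584, minus strand): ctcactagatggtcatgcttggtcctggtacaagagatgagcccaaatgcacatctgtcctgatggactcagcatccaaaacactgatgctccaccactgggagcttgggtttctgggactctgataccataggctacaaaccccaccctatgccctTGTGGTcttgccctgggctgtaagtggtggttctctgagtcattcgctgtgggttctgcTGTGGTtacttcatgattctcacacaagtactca
Prf1 (chr10:61297586-61297835, plus strand): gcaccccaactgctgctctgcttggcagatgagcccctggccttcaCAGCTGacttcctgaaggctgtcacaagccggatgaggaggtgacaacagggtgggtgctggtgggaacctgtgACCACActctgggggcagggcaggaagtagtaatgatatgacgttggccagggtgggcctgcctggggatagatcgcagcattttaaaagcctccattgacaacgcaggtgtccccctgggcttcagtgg
Nkg7 (chr7:43436888-43437137, plus strand): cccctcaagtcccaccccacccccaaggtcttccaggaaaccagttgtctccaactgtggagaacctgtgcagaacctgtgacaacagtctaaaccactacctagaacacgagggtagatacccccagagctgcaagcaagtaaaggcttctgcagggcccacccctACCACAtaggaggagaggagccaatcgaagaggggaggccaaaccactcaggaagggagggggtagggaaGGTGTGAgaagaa
The Runx core was in all 4 granule windows and in 0 of the 4 other windows (Ifng, Tbx21, Eomes and Id2), against 14% of 32841 mouse windows of this length. Gzmb held 2 copies, with first bases 93 and 34 bases before the RefSeq start, which lies 74 bases upstream of the Gzmb start in the deposited tables. The T-box half-site, in 3.33% of all windows, was found in Nkg7 alone of the 8, with its first base 13 bases before the start. The E-box, in 13% of all windows, was found in Prf1 and Id2. These matches describe letters and were not tested as binding sites. The windows are shown for their Runx matches, so the contrast with other windows is a description and not a test.

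The deleted gene, Trappc1, was measured at 78.7 and 55.0 TPM in the CD4 WT libraries and 30.5 and 32.8 in the CD4 KO libraries, where TPM is transcript abundance per length with equal totals across libraries. Its CD8 values were 81.2 and 40.3 TPM for WT and 56.9 and 45.6 for KO. Neither difference passed (limma, adjusted p = 0.235 and 0.869). The value of 40.3 TPM, from the library labelled CD8 WT replicate 2, was below both CD8 KO values. The CD8 difference in Trappc1 was -0.16 on the log2(TPM + 1) scale with both WT libraries. It was -0.66 without that library and 0.33 without CD8 WT replicate 1. Whether the label is right was not tested. The order of these values may also depend on scaling. Size factors of TPM were 1.02 and 0.996 in CD8 KO and 0.815 in the library labelled CD8 WT replicate 2. That library also had the highest level of all 10 myeloid markers, which summed to 26644 TPM against 83.7 to 2018 in the other 7, and of 5 of 6 erythroid markers. Its T cell markers summed to 1968 TPM, against 2633 to 5614 elsewhere. Cd8b1 was at 658 to 2192 TPM in CD8 and 14.1 to 44.2 in CD4 libraries, and Cd4 at 543 to 764 in CD4 and 0 to 14.5 in CD8 libraries, so lineage markers followed the labels. B cell markers summed to 1952 to 3144 TPM in CD4 and 454 to 1221 in CD8 libraries. Aligned sequence was 3.03 to 4.01 gigabases per library.

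**Figure D1:**
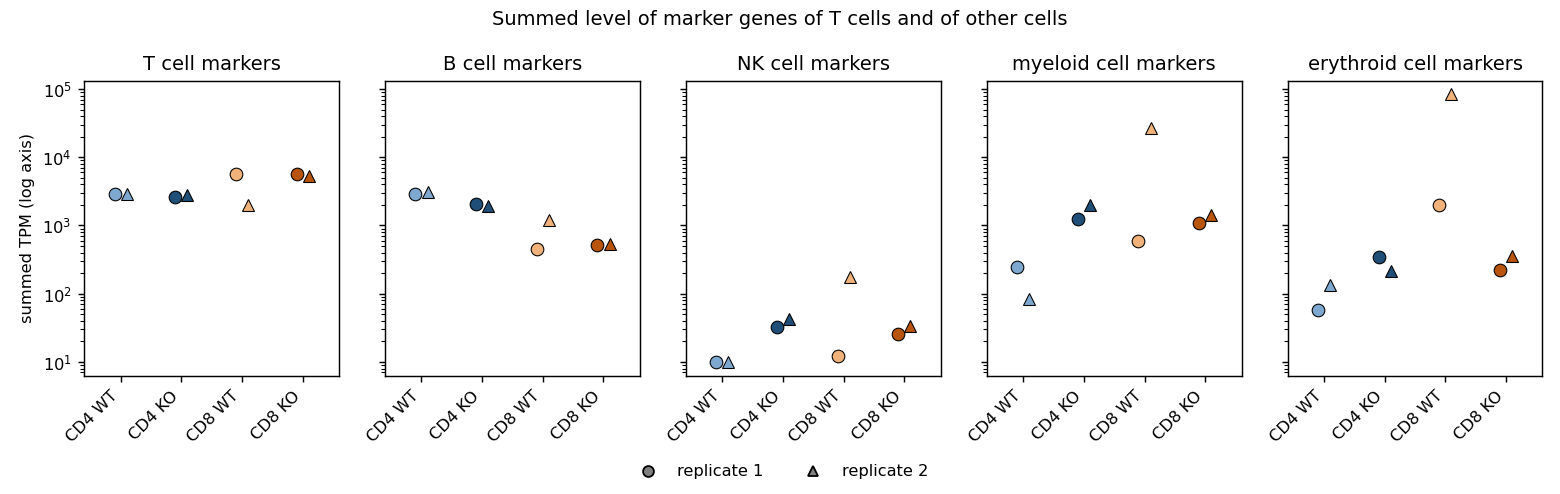
Summed TPM (log axis) of the marker genes of T, B, NK, myeloid and erythroid cells found in the tables, by group, with separate symbols for replicates 1 and 2. The library labelled CD8 WT replicate 2 is the highest for NK cell (177 TPM, of which 152 is Fcer1g, with 3 of 8 markers highest there), myeloid (26644) and erythroid (83167) markers and the lowest for T cell markers (1968).

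In the library labelled CD8 WT replicate 2, 8 of the 10 genes were above the other CD8 WT library. Gzmb was at 89.7 TPM and Gzma at 27.8, both listed at 0 in replicate 1. Tbx21 was at 23.7 against 0.0772 TPM. The exceptions were Klrd1 and Nkg7, which were lower there. Over all genes tested 35.2% were higher in replicate 2. The median absolute log2 difference between the CD8 WT libraries was 1.67 for the 10 genes and 0.77 for all genes. In the other 3 groups it was 0.22 to 0.60 for the 10 genes. The CD8 knockout differences of the 10 genes and their median between WT lineages are therefore given with and without this library. Without it CD8 WT is 1 library assumed to vary like the other groups. Counts and medians of the wider lists and marker lists use both CD8 WT libraries. In bulk RNA, fewer cells of a type and less RNA per cell cannot be told apart.

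**Figure D2:**
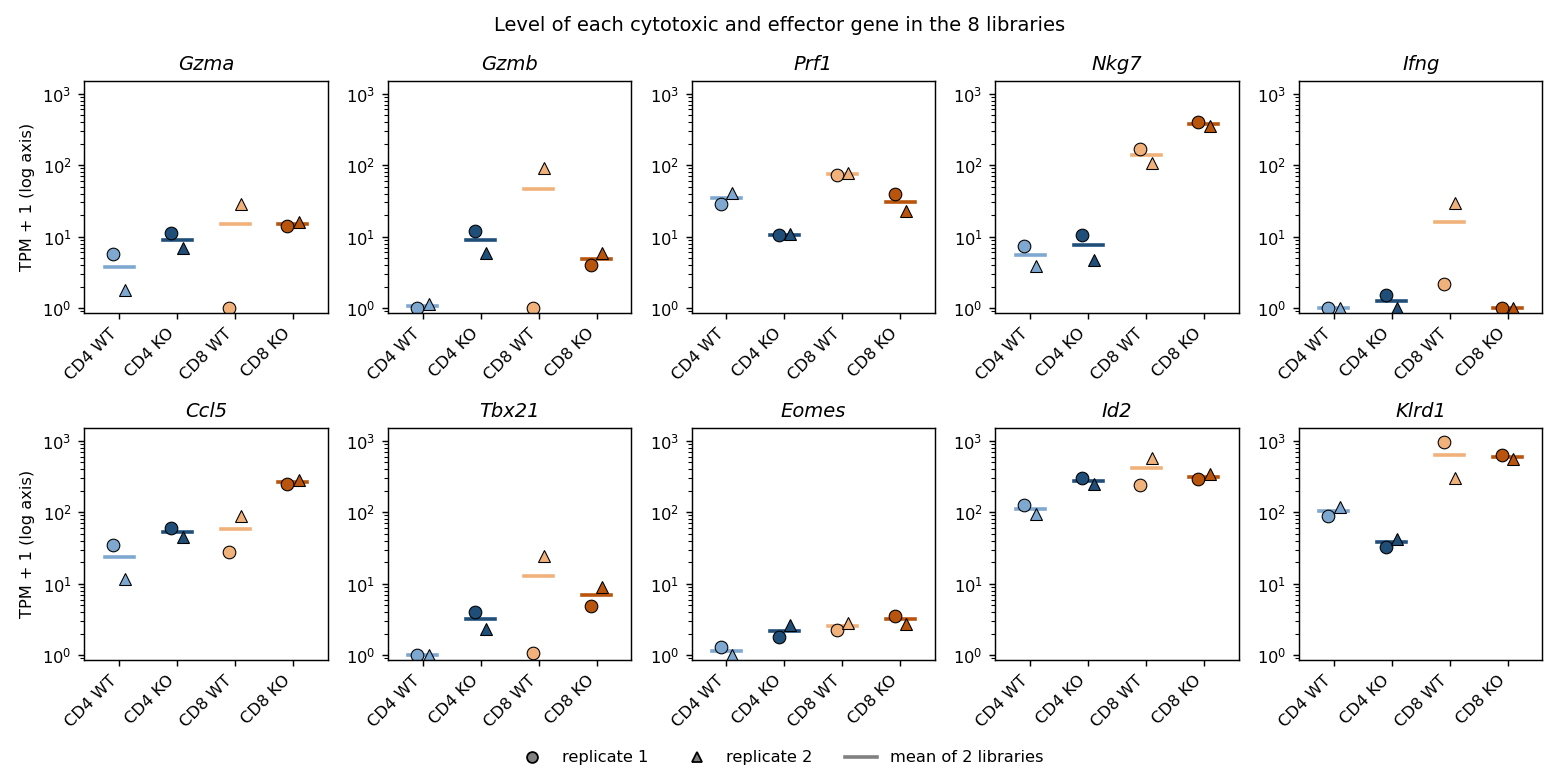
TPM + 1 (log axis) of the 10 genes by group, with separate symbols for replicates 1 and 2 and a bar for the mean of the 2 libraries. Nkg7 and Klrd1 are higher in every CD8 library than in every CD4 library, Gzmb and Gzma are split within CD8 WT between 0 and 89.7 or 27.8 TPM, and Ifng is at 0 in 5 of 8 libraries.

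Nkg7 and Klrd1 were the genes of the 10 whose lineage differences passed the test. Nkg7 (chromosome 7, 43437138 to 43438246, plus strand, mm10) encodes a granule membrane protein needed for release of lytic granules. CD4 libraries held 6.36 and 2.88 TPM in WT and 9.64 and 3.72 in KO, and CD8 libraries 169 and 107 in WT and 396 and 357 in KO. All 4 CD8 libraries were above all 4 CD4 libraries, the CD4 groups overlapped, and both CD8 KO libraries were above both CD8 WT libraries. In WT, Nkg7 was higher in CD8 than in CD4 cells, 138 ± 43.6 against 4.62 ± 2.46 TPM (SD, n = 2). The difference was 4.67 ± 0.49 on the log2(TPM + 1) scale, on which all differences below are given (SE; limma, adjusted p = 0.00563). In KO cells it was 5.73 ± 0.49 (limma, adjusted p = 0.00209). The WT difference was 4.99 ± 0.58 without the library labelled CD8 WT replicate 2 (limma, adjusted p = 0.0149). The WT call was lost without CD4 WT replicate 1 (limma, adjusted p = 0.0877) or replicate 2 (0.143), and when these groups were fitted alone (0.516). The KO call was lost without CD8 KO replicate 1 (0.151) or replicate 2 (0.122). Both calls were also lost with no filter on low values (0.138 and 0.0666).

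Klrd1 (chromosome 6, 129591811 to 129598775, plus strand) encodes CD94, the shared chain of the CD94/NKG2 receptors for non-classical MHC class I. It had the highest mean level of the 10 genes, 342 TPM, and a read depth of 41.2 to 1475 per base. Its levels were 88.2 and 118 TPM in CD4 WT, with 32.1 and 41.7 after knockout, and 973 and 304 for WT CD8 cells, with 629 and 551 after knockout. The order of group means was CD8 WT, CD8 KO, CD4 WT and CD4 KO, and of these neighbours only the CD8 groups overlapped. In KO cells Klrd1 was higher in CD8 than in CD4, by 3.97 ± 0.48 (limma, adjusted p = 0.0128). That call held without either CD8 WT library and was lost without any 1 of the other 6 (limma, adjusted p from 0.0763 without CD4 WT replicate 1 to 0.275 without CD8 KO replicate 1). It was also lost with no filter on low values (0.0752). In WT cells the difference was 2.40 ± 0.48 (limma, adjusted p = 0.122), short of the threshold. It passed at 3.24 ± 0.27 without the library labelled CD8 WT replicate 2 (limma, adjusted p = 0.00574) and at 1.56 ± 0.28 without CD8 WT replicate 1 (0.0162).

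In WT cells all 10 genes had higher values in CD8 than in CD4, with a median difference of 2.08 against -0.26 over all genes tested. Nkg7 was the 1 gene called, against 0.195% of all genes, and 5 of the 10 had an unadjusted p under 0.05, against 8.67%. For 7 of 10 the CD8 libraries lay wholly above the CD4 libraries, against 9.53% of all genes. The 5 include Ifng, and the 7 include Ifng, Tbx21 and Eomes. Tbx21 and Eomes were near the floor, with lower CD8 WT values of 0.0772 and 1.25 TPM and higher CD4 WT values of 0 and 0.295. With the library labelled CD8 WT replicate 2 left out, the median was 1.04 against -0.057, and 2 genes were called, Nkg7 and Klrd1, against 0.611% of all genes. Gzma then had a difference of -1.66 and Gzmb of -0.085. Without CD8 WT replicate 1, in contrast, 7 of 10 were called (Gzma, Gzmb, Ifng, Nkg7, Tbx21, Klrd1 and Id2), in a fit that called 13.8% of all genes. Ifng reached the filter on low values only through CD8 WT, so its place in any of these counts supports nothing. Myeloid and erythroid markers differed between the CD8 WT libraries together with these genes, and their part in the values was not tested.

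In KO cells 8 of 10 genes had higher values in CD8 than in CD4, with a median of 0.93 against -0.018 over all genes. Nkg7 and Klrd1 were the 2 called, against 0.28% of all genes, and 4 of 10 had an unadjusted p under 0.05, against 9.52%. For 7 of 10 the CD8 libraries lay above the CD4 libraries, against 23.6% of all genes. The 7 include Eomes, near the floor at 2.58 and 1.77 TPM in CD8 KO against 0.768 and 1.64 in CD4 KO. Its mean over the 8 libraries, 1.26 TPM, was just above the filter, with CD8 KO its highest group. The place of Eomes in this count therefore supports nothing. Gzmb (-0.80) and Ifng (-0.31) had negative differences, with overlapping libraries. Perforin had a difference of 1.49 ± 0.40 (limma, adjusted p = 0.222), without overlap.

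**Figure D3:**
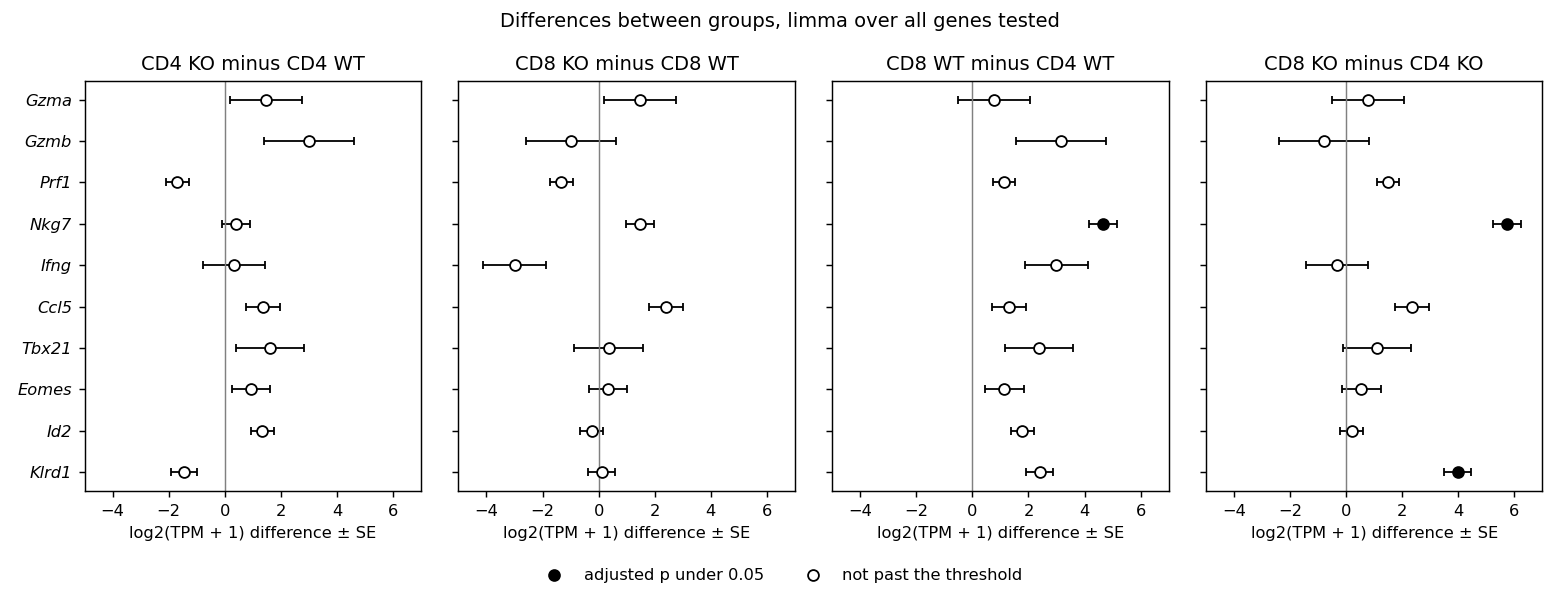
Log2(TPM + 1) differences with standard errors for the 10 genes in 4 comparisons of 2 libraries a group, with filled points where the adjusted p was under 0.05. Filled points stand at Nkg7 for CD8 against CD4 in WT (4.67) and in KO (5.73) and at Klrd1 in KO (3.97), and none stands in the knockout comparisons.

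Among the granule genes, Prf1 had lower values in the KO libraries of both lineages. Prf1 (chromosome 10, 61297836 to 61304263, plus strand) was at 27.7 and 39.9 TPM in WT and 9.42 and 9.86 in KO CD4 libraries, and at 72.0 and 76.2 in WT and 37.9 and 22.0 in KO CD8 libraries. In each lineage both KO libraries were below both WT libraries. The order of means was CD8 WT, CD4 WT, CD8 KO and CD4 KO, and CD4 WT and CD8 KO overlapped. The knockout differences were -1.69 ± 0.40 in CD4 cells (limma, adjusted p = 0.0923) and -1.33 ± 0.40 in CD8 cells (0.200), and neither passed. The CD4 difference passed without CD8 WT replicate 1 (limma, adjusted p = 0.0431), without the library labelled CD8 WT replicate 2 (0.0436) and with library weights (0.0120). The CD8 difference was -1.29 without the library labelled CD8 WT replicate 2 and did not pass (0.226). The CD8 WT libraries differed by 1.06-fold in Prf1, the least of the 10 genes.

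Gzmb (chromosome 14, 56258858 to 56262260, minus strand) was at 0 and 0.125 TPM in CD4 WT libraries and at 11.1 and 4.86 in CD4 KO libraries. The CD8 WT libraries held 0 and 89.7 TPM and the CD8 KO libraries 2.96 and 4.92. Both CD4 KO libraries were above both CD4 WT libraries, whereas the CD8 KO libraries lay between the CD8 WT libraries. The CD4 difference was 2.99 ± 1.60 (limma, adjusted p = 0.384). It passed without CD8 WT replicate 1 (0.0288) or the library labelled CD8 WT replicate 2 (0.0307). In CD8 cells the difference was -0.98 ± 1.60 with both WT libraries (limma, adjusted p = 0.794) and 2.27 ± 0.70 without the library labelled CD8 WT replicate 2 (0.187), and neither passed. Without CD8 WT replicate 1 it was -4.23 and passed (limma, adjusted p = 0.0106), and with a pseudocount of 0.1 it was 0.39. Granzymes of the Gzmb cluster are close copies, so the division of reads among them is uncertain.

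Gzma (chromosome 13, 113093827 to 113100981, minus strand) encodes the tryptase-like granzyme. It was at 4.63 and 0.775 TPM in WT and 10.2 and 5.94 in KO CD4 libraries, and at 0 and 27.8 in WT and 13.3 and 14.8 in KO CD8 libraries. The CD4 KO libraries were above the CD4 WT libraries, and the CD8 groups overlapped. The knockout differences were 1.48 ± 1.28 in CD4 (limma, adjusted p = 0.593) and 1.48 ± 1.28 in CD8 cells (0.598). With the library labelled CD8 WT replicate 2 left out, the CD8 difference was 3.91 ± 0.81 and did not pass (limma, adjusted p = 0.0955), and without CD8 WT replicate 1 it was -0.94.

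Ccl5 and Nkg7 had higher values in both CD8 KO than in both CD8 WT libraries. Ccl5 (chromosome 11, 83525779 to 83530518, minus strand) encodes the chemokine RANTES, whose messenger RNA memory CD8 cells hold in store. CD4 libraries held 34.1 and 10.5 TPM in WT and 58.6 and 44.4 in KO, and CD8 libraries 26.9 and 87.7 in WT and 245 and 279 in KO. The KO libraries were above the WT libraries in both lineages, and the CD8 KO libraries were above all others. The CD8 difference was 2.40 ± 0.61 (limma, adjusted p = 0.158) and the CD4 difference 1.37 ± 0.61 (0.299). With the library labelled CD8 WT replicate 2 left out, the CD8 difference was 3.23 ± 0.59 (limma, adjusted p = 0.0805). The Nkg7 difference was 1.47 ± 0.49 (limma, adjusted p = 0.232), and 1.15 without that library (0.381). Nkg7 in CD4 cells had a difference of 0.41 ± 0.49 with overlapping libraries (limma, adjusted p = 0.714).

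Ifng (chromosome 10, 118441047 to 118445892, plus strand) was listed at 0 in 5 of 8 libraries, namely both CD4 WT, CD4 KO replicate 2 and both CD8 KO. CD4 KO replicate 1 was at 0.542 TPM, CD8 WT replicate 1 at 1.15 and the library labelled CD8 WT replicate 2 at 28.7. Read depth was 46.1 per base in the last of these and 1.74 in CD8 WT replicate 1. Ifng reached the filter of a mean of 1 TPM only through the CD8 WT group. The CD8 knockout difference was -3.00 ± 1.11 (limma, adjusted p = 0.258), and -1.10 without that library (0.412). Without CD8 WT replicate 1 it was -4.89, which rests on 1 library of that group and is given as a description. No fold is given against a group listed at 0.

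Among the transcriptional regulators, Id2 was abundant and the T-box genes were low. Id2 (chromosome 12, 25093799 to 25096092, minus strand) was at 123 and 93.2 TPM in WT and 302 and 248 in KO CD4 libraries, and at 240 and 576 in WT and 287 and 343 in KO CD8 libraries. The CD4 WT libraries were below the other 6, whose groups overlapped. The CD4 knockout difference was 1.34 ± 0.40 (limma, adjusted p = 0.148). It passed without CD8 WT replicate 1 (0.0197), without the library labelled CD8 WT replicate 2 (0.0199) and with library weights (0.0105). The CD8 difference was -0.25 ± 0.40 with both WT libraries (limma, adjusted p = 0.793) and 0.38 ± 0.26 without the library labelled CD8 WT replicate 2 (0.513).

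Tbx21 (chromosome 11, 97098007 to 97115331, minus strand) had a listed value of 0 for each CD4 WT library and was at 3.06 and 1.33 TPM in CD4 KO. CD8 libraries held 0.0772 and 23.7 TPM in WT and 3.82 and 7.99 in KO. One CD8 WT library thus lay below and the other above all 4 KO libraries. The CD4 difference was 1.62 ± 1.22 (limma, adjusted p = 0.539) and the CD8 difference 0.35 ± 1.22 (0.911). With the library labelled CD8 WT replicate 2 left out, the CD8 difference was 2.61 ± 0.70 (limma, adjusted p = 0.153).

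Eomes (chromosome 9, 118478189 to 118486132, plus strand) was the lowest of the 10 genes, with a read depth of 0 to 4.24 per base. It was at 0.295 and 0 TPM in WT and 0.768 and 1.64 in KO CD4 libraries, and at 1.25 and 1.80 in WT and 2.58 and 1.77 in KO CD8 libraries. The CD4 WT libraries were the lowest, and each remaining group overlapped its neighbour in the order CD4 KO, CD8 WT, CD8 KO. Its knockout differences of 0.92 ± 0.68 in CD4 and 0.33 ± 0.68 in CD8 cells did not pass (limma, adjusted p = 0.530 and 0.842), and the latter was 0.48 without the library labelled CD8 WT replicate 2.

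In the CD4 knockout comparison 8 of 10 genes had higher values in the KO, with a median of 1.13 against -0.16 over all genes. By limma 0 were called, against 0.713% of all genes, and 4 had an unadjusted p under 0.05, against 16.7%. Groups did not overlap for 6 genes that were higher, against 21.7% of all genes, and for 2 that were lower (Prf1 and Klrd1), against 36.5%. Klrd1 had a difference of -1.46 ± 0.48 (limma, adjusted p = 0.175). The fit that omits the library labelled CD8 WT replicate 2 made 4 calls, Gzmb and Id2 higher and Prf1 and Klrd1 lower, and leaving out CD8 WT replicate 1 gave 4, the same genes. Those fits called 6.52% and 6.43% of all genes. Myeloid markers were also higher in CD4 KO, summing to 1255 to 2018 TPM against 83.7 to 246, with 7 of 10 higher without overlap and 0 called (limma, 4 at an unadjusted p under 0.05). NK cell markers summed to 32.0 to 42.2 TPM against 9.84 to 9.93, with 7 of 8 higher without overlap. By limma 0 of the 5 tested NK cell markers were called (1 at an unadjusted p under 0.05). Fcer1g alone was at 16.9 and 24.6 TPM in CD4 KO against 8.20 and 3.96 in CD4 WT. Of these markers, Ncr1 was at 0.332 and 2.88 TPM in CD4 KO against 0 and 0.266 in CD4 WT, and Klrb1c at 2.62 and 1.57 against 0.540 and 1.33. Klre1 was at 6.25 and 6.02 against 0 and 3.46 TPM, and Tyrobp at 3.71 and 3.39 against 0 and 0.638. Klra4 was listed at 0 in all 8 libraries. Erythroid markers summed to 217 to 349 TPM against 58.1 to 135, mostly Hba-a2 in KO (297 and 172 TPM), with 3 of 6 higher without overlap. B cell markers summed to 1952 to 2066 TPM in CD4 KO against 2886 to 3144 in CD4 WT, with lower values for 7 of 8 (3 at an unadjusted p under 0.05, 0 called by limma). The part of other cells in the Gzmb, Gzma and Tbx21 values was not tested.

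In the CD8 knockout comparison 6 of 10 genes had higher values in the KO, with a median of 0.22 against 0.048 over all genes. By limma 0 were called, against 0.297% of all genes, and 4 had an unadjusted p under 0.05, against 15.1%. Groups did not overlap for 2 genes that were higher (Ccl5 and Nkg7), against 23% of all genes, and for 2 that were lower (Prf1 and Ifng), against 19.1%. Ifng reached the filter on low values only through CD8 WT, so its place in these counts supports nothing. Without CD8 WT replicate 1 the differences were -4.23 for Gzmb and -4.89 for Ifng, which rest on 1 CD8 WT library and are given as a description. The fit that omits the library labelled CD8 WT replicate 2 made 0 calls, against 0.314% of all genes, and had a median of 0.82 against -0.075 over all genes. Klrd1 had a difference of 0.11 ± 0.48 with both libraries and -0.72 without it. Cd163l1, a marker of gamma delta T cells, had a listed value of 0 for each CD8 WT library and was at 48.7 and 35.4 TPM in CD8 KO (limma, adjusted p = 0.0266, and 0.0701 without the library labelled CD8 WT replicate 2), and was called in 6 of 16 alternatives. Sox13, another such marker, was at 0 in all CD8 libraries. Of the 6 gamma delta markers listed, 2 had entries and 1, Cd163l1, was tested. Trdc, Tcrg-C1, Tcrg-C2 and Tcrg-C4 had no entry. Zbtb16, the defining NKT cell factor, was at 0.0891 and 1.03 TPM in CD8 KO and 0 and 0.0727 in CD8 WT. Erythroid markers had lower values in CD8 KO for 6 of 6 (5 at an unadjusted p under 0.05), and summed to 219 to 352 TPM against 1984 in CD8 WT replicate 1 alone. Myeloid markers had lower values for 10 of 10 (2 at an unadjusted p under 0.05), and summed to 1104 to 1440 TPM in CD8 KO against 593 in CD8 WT replicate 1 and 26644 in the library labelled CD8 WT replicate 2. T cell markers had higher values for 6 of 7 with both CD8 WT libraries. They summed to 5259 to 5587 TPM in CD8 KO against 5614 in CD8 WT replicate 1 and 1968 in the library labelled CD8 WT replicate 2. The part of other cells in the CD8 values was not tested.

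The knockout effects in CD8 and CD4 cells were compared by an interaction term. By limma it called 0 of the 10 members and 0 of 11786 genes, a background of 0%. At an unadjusted p under 0.05 there were 2 members and 819 genes (6.95%). The 2 members were Id2, with an interaction value of -1.59 ± 0.57, and Klrd1, with 1.57 ± 0.68. Without the library labelled CD8 WT replicate 2 these were -0.96 and 0.73. Gzmb, at -3.97 ± 2.27, and Ifng, at -3.31 ± 1.57, were not among the 2. Without that library they were at -0.72 and -1.41. Leaving out CD8 WT replicate 1 instead left CD8 WT resting on the library labelled CD8 WT replicate 2. The values and calls of that fit are therefore given as a description. The place of Ifng among those calls supports nothing, since it reached the filter on low values only through CD8 WT. Without CD8 WT replicate 1 the interaction was called for 4 genes, with values of -7.22 for Gzmb, -5.21 for Ifng, -2.22 for Id2 and 2.41 for Klrd1, in a fit that called 9.74% of all genes.

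**Figure D4:**
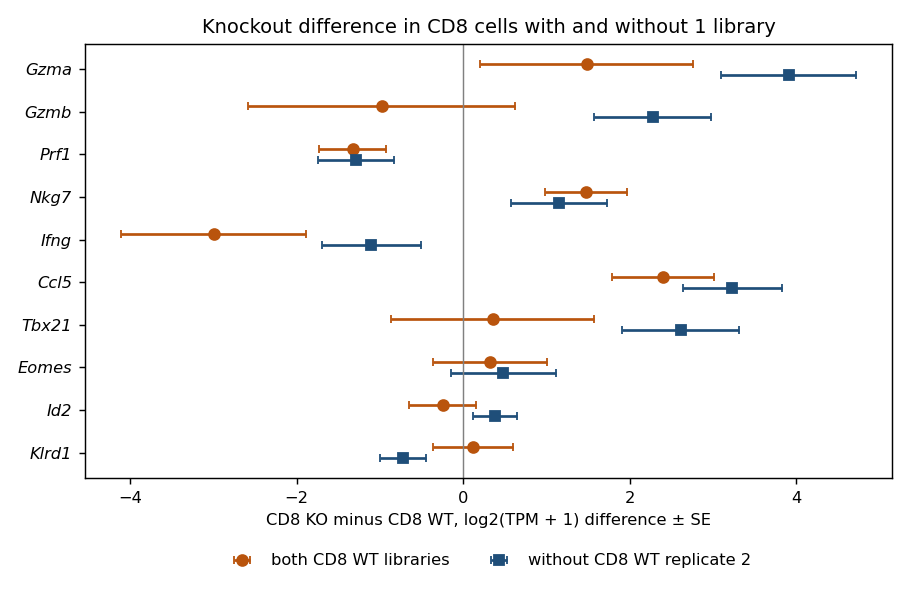
Log2(TPM + 1) difference of CD8 KO against CD8 WT with standard errors for the 10 genes, with both CD8 WT libraries and without the library labelled CD8 WT replicate 2. Gzmb (-0.98 and 2.27), Id2 (-0.25 and 0.38) and Klrd1 (0.11 and -0.72) change sign, while Prf1 (-1.33 and -1.29) and Nkg7 (1.47 and 1.15) keep theirs.

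Other genes of the effector programme came from 9 lists of 107 genes, of which 106 were in the tables and 88 were tested. In CD4 cells the knockout called 0 higher, against 0.187% of all genes, and 1 lower, against 0.526%, with 18 at an unadjusted p under 0.05 (limma). That is 20.5% of 88, near the 16.7% of all genes given above. In CD8 cells it called 0 higher and 0 lower, against 0.11% and 0.187% of all genes, with 15 at an unadjusted p under 0.05 (limma), or 17.0% against 15.1% of all genes. The per-list counts at an unadjusted p under 0.05 that follow are to be read against these all-gene shares. The gene called in CD4 cells was Zeb1, which encodes a zinc-finger transcriptional repressor. It was at 92.1 and 116 TPM in WT and 26.0 and 26.6 in KO libraries, a difference of -1.93 ± 0.34 (limma, adjusted p = 0.0423). The call held without either CD8 WT library and was lost without any 1 of the other 6 (limma, adjusted p from 0.104 without CD8 KO replicate 2 to 0.458 without CD4 KO replicate 1). It was also lost with the replicate block (0.0619) and with no filter (0.0852), and was made in 8 of 16 alternatives.

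Of 12 granule proteases and lytic proteins, 6 were tested and 0 were called in either knockout comparison (limma, 1 in CD4 and 2 in CD8 cells at an unadjusted p under 0.05). Of these, 3 of 6 had higher values in the CD4 KO, with a median difference of 0.12, and 4 in the CD8 KO, with a median of 1.05. Gzmm, which encodes granzyme M, was at 5.72 and 4.80 TPM in WT and 23.5 and 27.6 in KO CD4 libraries, and at 2.76 and 3.23 in WT and 18.2 and 20.4 in KO CD8 libraries. All 4 KO libraries were above all 4 WT libraries. The differences of 2.08 ± 0.46 in CD4 (limma, adjusted p = 0.0771) and 2.35 ± 0.46 in CD8 cells (0.0914) did not pass. With the library labelled CD8 WT replicate 2 left out, the CD4 difference passed (0.0289) and the CD8 difference was 2.43 ± 0.48 (0.0884). Without CD8 WT replicate 1 both passed (0.0281 and 0.0221). Srgn, the gene of the granule proteoglycan serglycin, was at 400 to 726 TPM in 7 libraries and at 1304 in the library labelled CD8 WT replicate 2. Ctsw, which encodes a cathepsin of cytotoxic cells, was at 66.8 to 103 TPM in CD4 and 147 to 386 in CD8 libraries.

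Of the granule loading and exocytosis genes, 7 of 12 had higher values in the CD4 KO, with a median difference of 0.29, and 5 in the CD8 KO, with a median of -0.21. By limma 0 of them were called (4 in CD4 and 2 in CD8 cells at an unadjusted p under 0.05). Rab27a, whose GTPase docks lytic granules at the membrane, was at 377 and 323 TPM in WT and 130 and 153 in KO CD4 libraries, a difference of -1.30 ± 0.29 (limma, adjusted p = 0.0816). Ctsc, whose protease activates granzymes, was at 257 to 591 TPM over the 8 libraries. The granzyme and perforin inhibitors (4 genes) had 0 calls (limma, 1 in CD4 and 1 in CD8 cells at an unadjusted p under 0.05), and Serpinb9, which encodes an inhibitor of granzyme B, was at 39.9 to 64.2 TPM.

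The effector cytokines and chemokines had 0 calls among 8 tested genes (limma, 1 in CD4 and 2 in CD8 cells at an unadjusted p under 0.05). Ccl3, which encodes a chemokine that myeloid cells also make, was at 1491 TPM in the library labelled CD8 WT replicate 2 and at 3.20 to 37.7 elsewhere. Tnf was at 128 TPM in that library and 4.50 to 21.3 in the other 7. Ltb, the lymphotoxin beta gene of resting lymphocytes, was instead lower there, at 671 against 1450 to 2842 TPM. Of the cytokine receptors and STATs, 5 of 12 had higher values in the CD4 KO, with a median difference of -0.24, and 7 in the CD8 KO, with a median of 0.13, and 0 were called (limma, 3 in CD4 and 2 in CD8 cells at an unadjusted p under 0.05). Ifngr1, a chain of the receptor for the Ifng product, was at 2510 to 5296 TPM in 7 libraries and 2233 in the library labelled CD8 WT replicate 2.

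Of 12 tested effector transcription factors 0 were called in either knockout comparison (limma, 0 in CD4 and 0 in CD8 cells at an unadjusted p under 0.05). Bhlhe40, a factor of activated T cells and of myeloid cells, was at 20.3 and 22.2 TPM in WT and 80.3 and 82.6 in KO CD4 libraries, and at 9.53 and 237 in WT and 17.5 and 24.4 in KO CD8 libraries. Of the 10 naive and memory-precursor factors, Zeb1 was the 1 called in a knockout comparison. In the CD4 KO 6 of the 10 had lower values, with a median difference of -0.58 (limma, 3 at an unadjusted p under 0.05). In the CD8 KO 6 did, with a median of -0.055 (2). Tcf7 and Lef1, which maintain the naive state, were at 701 to 2110 and 770 to 1885 TPM over the 8 libraries. Lef1 was at 1671 and 1835 TPM in WT and 925 and 1082 in KO CD4 libraries (limma, adjusted p = 0.342). Satb1 was at 334 and 264 in WT and 149 and 175 in KO CD4 libraries (0.226). The CD4 groups overlapped for Tcf7.

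Of 13 tested surface markers of effector and memory cells 2 were called higher in CD8 than in CD4 KO cells, against 0.187% of all genes. Cxcr3, the receptor for interferon-induced chemokines, was at 43.2 and 55.1 against 0.872 and 0.653 TPM, a difference of 4.82 ± 0.51 (limma, adjusted p = 0.00745). Cxcr6, a chemokine receptor of tissue-resident cells, was at 90.5 and 49.2 against 1.66 and 2.29 TPM, a difference of 4.52 ± 0.56 (limma, adjusted p = 0.0128). The Cxcr3 call was lost without any 1 of the 4 KO libraries (limma, adjusted p from 0.0996 without CD4 KO replicate 2 to 0.175 without CD8 KO replicate 1). The Cxcr6 call was lost without any 1 library other than the CD8 WT libraries (0.0740 without CD4 WT replicate 2 to 0.275 without CD8 KO replicate 1). In WT cells Ly6c2 was higher in CD8 (300 ± 113 against 10.7 ± 5.97 TPM, SD, n = 2) and Ly6c1 lower (2.07 ± 0.111 against 53.6 ± 21.8 TPM). Their differences were 4.73 ± 0.44 and -4.09 ± 0.54 (limma, adjusted p = 0.00455 and 0.0221), 1 call in each direction against 0.11% and 0.0848% of all genes. Reads of these close copies may be assigned to the wrong one. The Ly6c2 call was lost without either CD4 WT library (0.0631 without CD4 WT replicate 2 to 0.0674 without CD4 WT replicate 1). That of Ly6c1 was lost without any 1 of the CD4 libraries or the library labelled CD8 WT replicate 2 (0.0558 without the library labelled CD8 WT replicate 2 to 0.376 without CD4 WT replicate 2). Over all 16 alternatives the calls were made in 11 for Cxcr3, 9 for Cxcr6, 12 for Ly6c2 and 8 for Ly6c1. Ccr7, which guides naive cells into lymph nodes, was at 1865 to 3288 TPM.

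Of 14 NK receptors that effector T cells also carry, 11 were tested and 0 were called in either knockout comparison (limma, 1 in CD4 and 2 in CD8 cells at an unadjusted p under 0.05). Klrc1 encodes NKG2A, a partner of the Klrd1 product. It was at 1.11 and 0.309 TPM in WT and 3.67 and 7.12 in KO CD4 libraries, and at 2.15 and 12.9 in WT and 22.9 and 19.9 in KO CD8 libraries. The KO libraries were above the WT libraries in both lineages, and every library held less Klrc1 than Klrd1 in TPM, a scale per transcript length. Cd226, which encodes the activating receptor DNAM-1, was at 8.39 to 24.4 TPM in CD4 and 50.2 to 169 in CD8 libraries.

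The genes nearest in pattern to each member were sought among 9145 others with a mean of at least 5 TPM. The measure was the root mean square difference of log2(TPM + 1) values centred on each gene's mean over the 8 libraries. Nearest to Nkg7 were Bend4 (0.50), Cd8b1 (0.71) and Itgae (0.77), and among the nearest to Klrd1 were Rcn3 (0.43) and Cxcr6 (0.46). Nearest to Ccl5 were Baiap3 (0.48), Klrc1 (0.50) and Cercam (0.56), and nearest to Prf1 were Hsd11b1 (0.30), Stx18 (0.31) and Pole2 (0.38). Gzmb was nearest to Jun (0.57), AA467197 (0.59) and S100a9 (0.63), the last a neutrophil gene. Gzma was nearest to Pygl (0.48), Cdkn1a (0.56) and Pmaip1 (0.58), and Id2 to Ddit3 (0.31), Fzr1 (0.31) and Snord22 (0.33). The members' own standard deviations over the 8 libraries were 0.83 for Id2 to 2.87 for Nkg7 on this scale. Ifng, Tbx21 and Eomes had means under 5 TPM and were not compared.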

How the data were processed

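Gene tables of 8 libraries were analysed, each assigned to its group by its title. TRIzol was used for RNA extraction and a SMARTER kit for the libraries, per the labels' protocols. The submitters' processing notes name HISAT and mm10, with no version, and the labels' protocols name DESeq2 for the authors' differential expression, which was not used here. The deposited tables give TPM, FPKM and coverage (mean read depth per base), per the file headers. Coverage divided by FPKM gave the aligned bases. TPM was summed over rows of 1 symbol. Since TPM keeps no counts, no counting interval is given and a 0 is reported as listed.

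Log2(TPM + 1) of the 11786 of 23337 symbols with a mean of at least 1 TPM was fitted with limma 3.58.1 in R 4.3.3, with a mean-variance trend and a mean for each group. The 4 groups shared their spread (4 residual and 5.68 prior degrees of freedom). Benjamini-Hochberg adjustment ran over all genes tested in each comparison, and calls were made at 0.05. The log2 scale with this pseudocount understates changes of low genes. No source read here states that replicates were different animals, so the p-values cover differences among libraries that could be technical.

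Members and lists were chosen with earlier results of these data known. The text names the members, Trappc1, genes called or among the 3 most abundant of each list, and the 3 genes nearest in pattern to a member, and some results are not reported here. The NK genes Ncr1, Klrb1c, Klra4 and Tyrobp were named after their values were seen. Of 50 marker genes 43 were in the tables. The fit was tested on simulated data. These gave all groups the same spread for a gene, so the effect of unequal spread between groups was not tested. Alternatives were another scaling, pseudocount and filters, FPKM, library weights, the compared groups alone, a replicate block and leaving out each library.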

Additional observations from a re-analysis of the deposited data

How the results depend on the processing

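Of 775 values of the 10 genes under alternatives, 711 kept their direction and side of the threshold, 28 passed newly, 14 no longer passed and 22 changed sign. Leaving out 1 library at a time, members called ranged from 0 to 4 for the knockout in CD4 cells, 0 to 2 in CD8 cells, 0 to 7 between WT lineages, 0 to 2 between KO lineages and 0 to 4 for the interaction. The upper ends for CD8 cells, WT lineages and the interaction include Ifng, which reached the filter only through CD8 WT. With no filter on low values 0 members were called between WT and 0 between KO lineages. With the compared groups alone 0 and with median-of-ratios scaling 2 were called between WT lineages. Library weights gave 3 calls in CD4 cells and 4 between KO lineages. The replicate block left the members' calls at 0 and 0 in the knockout comparisons, 1 and 2 between lineages and 0 for the interaction, and gave 29 CD4 calls over all genes where 84 are reported. Libraries with the same number share only that number, with correlations of their deviations of -0.036 to 0.094 over 6 pairs of groups.

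Sign changes arose mostly where 1 library was left out. In the CD8 knockout comparison the leave-one-out ranges were -0.94 to 3.91 for Gzma, -4.23 to 2.27 for Gzmb, -1.90 to 2.61 for Tbx21, -0.72 to 0.95 for Klrd1, -0.88 to 0.38 for Id2 and -0.66 to 0.33 for Trappc1. A pseudocount of 0.1 gave 0.39 for Gzmb, and FPKM gave -0.038 for Tbx21. In CD4 cells the range was -0.18 to 0.99 for Nkg7. Between WT lineages it was -1.66 to 3.19 for Gzma and -0.085 to 6.42 for Gzmb, and a pseudocount of 0.1 gave -0.29 for Gzma. For the interaction it was -2.42 to 2.43 for Gzma, -0.021 to 0.74 for Prf1 and -3.52 to 0.99 for Tbx21, and Gzma was -0.28 with median-of-ratios scaling and -0.24 with FPKM. The cause was not tested.

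Over all genes, calls in CD4 cells ranged from 0 to 768 with 1 library left out, and were 0 with no filter, 141 with median-of-ratios scaling, 243 with the compared groups alone and 1260 with library weights. In CD8 cells 35 are reported, with 0 to 1842 leaving out 1 library and 0, 0 and 0 with no filter, the groups alone and weights. Between WT lineages the 23 reported calls became 0 to 1629, 1, 0 and 15 in that order, and between KO lineages the 33 became 1 to 153, 0, 141 and 353, with 50 by median-of-ratios scaling. The interaction had 0 to 1148 with 1 library left out. A mean of at least 5 TPM leaves out Ifng, Tbx21 and Eomes. Precision is limited by 2 libraries a group, by the low read depth of Eomes, and for Ifng and Tbx21 by the gap between the CD8 WT libraries.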
